A study of Homo sapiens with 6 samples.

Results

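The positions compared here are those of human 18S and 28S ribosomal RNA (rRNA) read on CMC-treated RNA under 2 error-prone conditions of reverse transcription. One used HIV reverse transcriptase (HIV RT) with magnesium, and the other used SuperScript III with manganese. A position was kept where at least 100 reads crossed it in both libraries, which left 6935 of 6939, 1867 in 18S and 5068 in 28S. The 4 left out were the first and last position of each rRNA, which 0 reads crossed. Uridine (U) was the reference base at 1154 of the 6935, or 16.6%, with 1214 A, 2192 C and 2375 G.

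Both libraries came from HEK293T/17, an established human embryonic kidney line, as total RNA depleted of short RNAs and broken into fragments. The fragments were treated with CMC, or were mock-treated, and were then end-repaired and joined to a 3′ adapter before they were copied. The cDNA was selected by size, circularised, amplified and sequenced in a single lane. Each combination of treatment and condition was 1 library, so no difference has a replicate check. The 2 mock libraries of the same conditions are given as the background. The tables cover rRNA only, so the line was not checked against marker genes. The HIV RT tables carry an extra word about edges in their names, and whether their reads were trimmed or aligned otherwise is not given in the sources used here. Enzyme, metal ion, library and any such step cannot be told apart.

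Pseudouridine (Ψ) is an isomer of U made in rRNA mainly by guide-directed enzymes. CMC is a carbodiimide that attaches to U, G and Ψ and stays longest on Ψ, where the adduct can halt reverse transcriptase or make it insert a wrong base. Manganese makes many polymerases less accurate, and HIV RT has no proofreading activity and is known for frequent errors.

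The mutation share is the percent of reads crossing a position that carry another base. A stop is a read that ended just before a template base was copied, and the stop share is its percent of all reads that either ended at or crossed that base. Differences are HIV RT minus manganese, in percentage points. A position was called where the 2 libraries differed by a two-sided Fisher's exact test (Benjamini-Hochberg over all 6935, threshold 0.05) and by 5 points or more. Each call sets 1 library against another and does not test the condition. The libraries held 21206954 reads with HIV RT and 24611914 with manganese, and a median of 63215 and 77084.5 reads crossed a U. The 95% interval of a difference at U reached, at the median, 0.128 points to either side for mutation and 0.228 for stops. It reached over 1 point to either side at 25 and 30 of the U. No molecular identifiers are described in the labels, so reads copied by PCR may stem from 1 molecule, and all intervals cover counting error only.

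The positions on which the comparison turns are shown in the letters of the deposited tables, with T for U and the position itself in capitals. The first 4 had more mutation with HIV RT and the next 4 more with manganese. The following 4 had more stops with HIV RT or with manganese, in pairs, and at the last 2 the base read differed. Numbers in brackets are the first and last position shown.
28S Ψ1744 (1737 to 1751): aagcgaaTgattaga
28S Ψ3715 (3708 to 3722): ctgaatgTcaaagtg
18S Ψ1692 (1685 to 1699): tgcccttTgtacaca
18S Ψ93 (86 to 100): ctgcgaaTggctcat
18S Ψ1643 (1636 to 1650): gaggaatTcccagta
18S Ψ1081 (1074 to 1088): ccgaccaTaaacgat
28S U3645 (3638 to 3652): gtttaatTaaaacaa
18S U652 (645 to 659): cgtatatTaaagttg
18S Ψ863 (856 to 870): ctaggaaTaatggaa
28S Ψ3844 (3837 to 3851): ctgtcccTacctact
18S Ψ1367 (1360 to 1374): tgtctggTtaattcc
18S Ψ822 (815 to 829): tagagtgTtcaaagc
28S U1531 (1524 to 1538): aagatggTgaactat
18S U960 (953 to 967): ctagaggTgaaattc

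The median difference in mutation share was larger at U than at the other bases. The median mutation share at U was 1.69% with HIV RT and 1.04% with manganese, and it was higher with HIV RT at 848 of 1154 U. The median difference was 0.527 points, with quartiles of -0.0517 and 1.26. In the mock libraries the same median difference was 0.377 points, from shares of 0.597% and 0.150%, so much of this median gap was present without CMC. At A, C and G the CMC medians were 0.587% and 0.59995%, 0.531% and 0.554%, and 0.877% and 0.844%, with median differences of 0.0172, -0.0368 and -0.0258 points.

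The median stop share was higher with HIV RT at all 4 bases, least so at A. The median stop share at U was 5.33% with HIV RT and 3.92% with manganese, and HIV RT was higher at 715 of 1154. The median difference was 0.870 points, with quartiles of -1.48 and 3.36, against -0.184 points in the mock libraries. At G the medians were 2.80% and 1.83%, a median difference of 0.564 points that was 0.559 in the mock libraries. At A they were 1.98% and 1.73%, with a median difference of 0.0777 points. Taking both events together, as mismatches plus stops over crossing reads plus stops, the median at U was 7.49% with HIV RT and 5.70% with manganese. The median of these differences was 1.51 points in the CMC libraries and 0.154 in the mock libraries.

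Over the 1154 U the 2 libraries ranked positions only in part alike. Spearman's rho was 0.51 for mutation, 0.67 for stops and 0.75 for both events together, with Pearson's r of 0.72, 0.66 and 0.74. These describe positions of the same 2 libraries, which are not independent of each other. The scatter of shares shows how far single U lie from equal values.

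**Figure D1:**
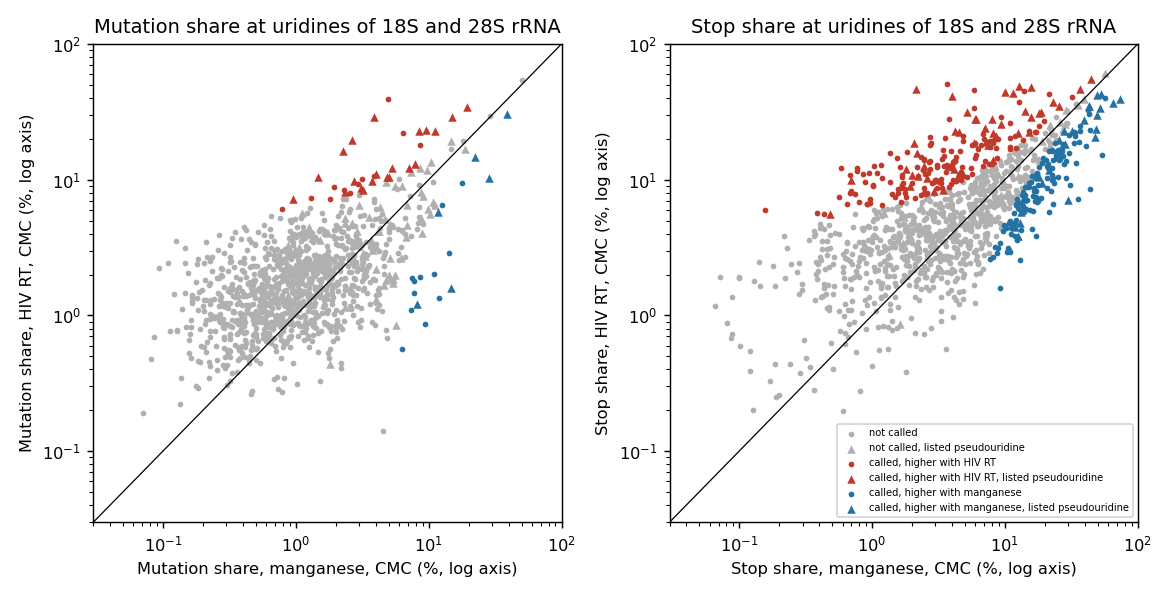
Mutation share (left) and stop share (right) of each of 1154 U after CMC, HIV RT against manganese, both axes in percent on a log scale, with the line of equal values. Triangles are listed pseudouridines and colours mark calls; 33 U were called higher with HIV RT and 18 higher with manganese for mutation, 197 and 149 for stops, and 11 U with a stop share too low for the axis in either library are not drawn.

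For mutation, 33 U were called higher with HIV RT, where 40 of all 6935 positions (0.577%) were, and 18 U were called higher with manganese, where 68 of all positions (0.981%) were. These are 2.86% and 1.56% of the U. HIV RT calls were thus mostly at U, with 3 at A, 3 at C and 1 at G. Manganese calls were by number mostly elsewhere, with 5 at A, 23 at C and 22 at G. These are 0.412%, 1.05% and 0.926% of the positions with those bases, so by share manganese calls too were most frequent at U. In the mock libraries 2 of the 33 and 3 of the 18 differed by at least 5 points in the same direction. For stops, 197 U were called higher with HIV RT (6.45% of all positions were) and 149 higher with manganese (6.36% of all). Of these, 14 of the 197 and 40 of the 149 differed by at least 5 points the same way in the mock libraries.

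The calls near the 5-point bar were as follows. The smallest called mutation differences at U were 5.12 points, at U3822 of 28S, and -5.54 points, at U1307 of 18S. The nearest below the bar were 4.94 points at U2004 and -4.87 points at U4361, both of 28S. For stops the bar passed between 5.02 and 4.999 points and between -5.01 and -4.86 points.

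At known pseudouridines the median shares of both events were higher with HIV RT than with manganese. A list of 107 was written from general knowledge for this work, and 103 of them fell on a U of the deposited sequences. The other 1051 U served for comparison. They include the modified U1248 of 18S, described below, and may hold further sites not on the list. At the 103 the median mutation share was 4.74% with HIV RT and 4.04% with manganese, with a median difference of 1.13 points (quartiles -1.85 and 3.54). HIV RT was higher at 63. The median stop share was 18.5% and 10.8%, with a median difference of 3.92 points (quartiles -3.99 and 10.9), and HIV RT was higher at 68. Both events together gave medians of 25.6% and 16.4%, with HIV RT higher at 73 of 103. These counts are 61.2% of the sites for mutation, 66.0% for stops and 70.9% for both, against 74.7%, 61.6% and 66.5% of the other U. By count of sites, HIV RT was thus higher in mutation at a smaller share of listed sites than of other U. In the mock libraries the median mutation shares at these sites were 0.471% and 0.116%.

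Counted by level, the 2 conditions marked overlapping but different sets of the 103. A mutation share of at least 5% was reached at 48 sites with HIV RT and 43 with manganese, of which 29 were shared. These 29 are 60.4% of the HIV RT set and 67.4% of the manganese set. A share of at least 10% was reached at 24 and 14 sites. At the other U these levels were reached at 54 and 45, and at 10 and 11, of 1051. A stop share of at least 10% was reached at 73 sites with HIV RT and 52 with manganese, 44 of them in both, and one of at least 20% at 47 and 29. At the other U, 234 and 205 reached 10%, while 43 (4.09%) with HIV RT and 71 (6.76%) with manganese reached 20%, so at this level the order was the reverse of that at listed sites. Either a mutation share of at least 5% or a stop share of at least 10% was reached at 91 sites with HIV RT and 81 with manganese. At the other U the same rule held at 262 and 239 of 1051, which is 24.9% and 22.7%.

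By calls, 21 of the 103 had more mutation with HIV RT and 6 more with manganese, while 44 and 24 had more stops. Among the other U, mutation was called at 12 in each direction and stops at 153 and 125. The listed sites made up 63.6% of the mutation calls in favour of HIV RT at U and 33.3% of those in favour of manganese.

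Of the 8 U with the largest excess of mutation under HIV RT, 6 were listed pseudouridines. At Ψ1744 of 28S, 29.1% of crossing reads were mismatched with HIV RT and 3.85% with manganese, a difference of 25.3 points (95% interval 24.9 to 25.7), against 1.01% and 0.102% in the mock libraries. Ψ3715 of 28S had 19.6% and 2.65%, and Ψ93 of 18S had 16.4% and 2.27%, so at all 3 the manganese share was the lower by far. Ψ1692 of 18S had 34.6% and 19.3%, Ψ1347 of 18S had 29.1% and 15.1%, and Ψ1004 of 18S had 22.9% and 8.46%. These sites were mutated under both conditions, with the higher share under HIV RT. The mock shares of these 6 sites were at most 1.01% with HIV RT.

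The other 2 were unlisted and stand apart in the mock libraries or in depth. U597 of 28S, in a GC-rich stretch, had 39.3% and 4.97% after CMC, but it had 27.8% and 2.67% in the mock libraries too. Its difference minus the mock difference was 9.17 points. Its mismatched reads were G in 98.5% with HIV RT and 93.4% with manganese. U3457 of 28S was crossed by 490 and 751 reads, the fewest of the U called for mutation, and had 22.2% and 6.39% (interval of the difference 11.9 to 20.04 points). In the mock libraries it had 8.78% and 0.648%, and its difference minus the mock difference was 7.72 points.

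The largest excess of mutation under manganese was at Ψ1643 of 18S, with 10.2% under HIV RT and 28.6% under manganese, a difference of -18.3 points (interval -18.6 to -18.0). It stands before 3 C, and C made up 90.9% of its mismatched reads with HIV RT and 99.3% with manganese. The next U on its 5′ side, U1642, went the other way, with 18.1% under HIV RT and 8.66% under manganese. There the base read changed as well. A made up 95.3% of the mismatched reads with HIV RT and 42.1% with manganese, and C made up 3.97% and 57.2%. Thus at this pair of adjacent U the condition that read more wrong bases switched within 1 nt. Ψ4471 of 28S was the most mutated listed site under manganese, with 39.1% against 30.4% under HIV RT.

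U965 of 18S, which is not on the list, was called higher with manganese for mutation and for stops. Its mutation share was 9.44% with HIV RT and 17.7% with manganese, the mock shares were 0.575% and 0.164%, and its stop share was 16.3% and 24.8%. Its mismatched reads were A in 94.5% and 99.1%. It lies just 5′ of the listed Ψ966. It was the only U of the 1154 called in favour of manganese for both events.

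U before a run of A had higher mutation shares with manganese in most cases. At the 16 U before at least 3 A the median mutation share was 0.949% with HIV RT and 4.33% with manganese, and manganese was higher at 13 of 16. The median difference was -2.90 points, with quartiles of -7.15 and -1.24. Of the 16, 6 were among the 18 mutation calls in favour of manganese at U, while 0 of the 33 calls in favour of HIV RT were among them. The mock libraries had the same order, with 0.406% and 2.34% and a median difference of -1.97 points, so this gap was largely present without CMC. Stops went the other way at these U after CMC, with medians of 14.2% and 4.36%, 8 calls in favour of HIV RT and 0 in favour of manganese. The mock stop medians were 6.25% and 4.49%, with a median difference of 1.77 points in the same direction.

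At U3645 of 28S, before 4 A, the mutation share was 2.88% with HIV RT and 14.2% with manganese, and 1.17% and 7.34% in the mock libraries. U652 of 18S, just 3′ of the listed Ψ651, had 1.34% and 11.95%, and 0.507% and 4.91% in the mock libraries. Minus the mock differences these 2 differed by -5.15 and -6.21 points. U316 of 28S had 0.861% and 9.47%, and its difference minus the mock difference was -4.56 points, below the 5-point bar. Ψ1081 of 18S differed from these in its mock shares, which were 0.219% and 1.71%, against 1.60% and 14.7% after CMC. The exceptions to the order were U667 of 18S, U333 of 28S and U573 of 18S, where HIV RT was higher by 0.544, 0.164 and 0.0372 points. The last of these intervals included 0, from -0.133 to 0.207. These exceptions were picked out after their values were seen.

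With shorter runs of A the order was reversed or absent. Before a single A, 120 U had medians of 1.56% and 0.675% and HIV RT was higher at 99. Before 2 A, 52 U had 1.01% and 1.10%. Before at least 3 C, 59 U had medians of 1.52% and 1.94% but a median difference of -0.0072 points. Before at least 3 G, 37 U had 2.56% and 3.13%, with a median difference of -0.672 points, and HIV RT was higher at 12 of them. The longer runs were grouped after the values of single positions were seen, so their counts are a description.

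The single base on the 3′ side also separated the calls. Mutation calls in favour of HIV RT fell on 0 of 188 U before A, 7 of 382 before C, 13 of 332 before G and 13 of 252 before U. Those in favour of manganese fell on 7, 5, 2 and 4. Of the 7 before A, 6 stood before at least 3 A and are the calls already described. The median differences were 0.410, 0.376, 0.768 and 0.684 points, against 0.399, 0.318, 0.343 and 0.527 points in the mock libraries. Before G the CMC medians were 2.26% and 1.29%. For listed pseudouridines before G, the medians were 11.4% and 6.95% over 24 sites, and 9 were called in favour of HIV RT and 2 in favour of manganese. For the 29 before U they were 6.48% and 3.30%, with 10 and 0 calls. The 26 before A had 2.71% and 2.76%, with 0 and 2 calls, and the 24 before C had 4.32% and 3.65%, with 2 and 2.

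The base on the 5′ side divided the mutation calls in favour of HIV RT less. HIV RT and manganese had 7 and 4 calls among 213 U after A, and 5 and 1 among 329 after C. They had 12 and 6 among 360 after G, and 9 and 7 among 252 after U. With HIV RT these are 3.29%, 1.52%, 3.33% and 3.57% of the groups, against 2.86% of all U. With manganese they are 1.88%, 0.304%, 1.67% and 2.78%, against 1.56%. The median differences were 0.635, 0.384, 0.553 and 0.570 points, against 0.499, 0.372, 0.306 and 0.403 points in the mock libraries. Among the 16 pairs of neighbours, the largest median differences were 1.03 points at 72 U between U and G and 0.960 points at 58 U between A and U. The smallest was 0.147 points at 55 U between G and A. The spread of single sites was wide in every group, as the plot of differences by the 3′ base shows.

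**Figure D2:**
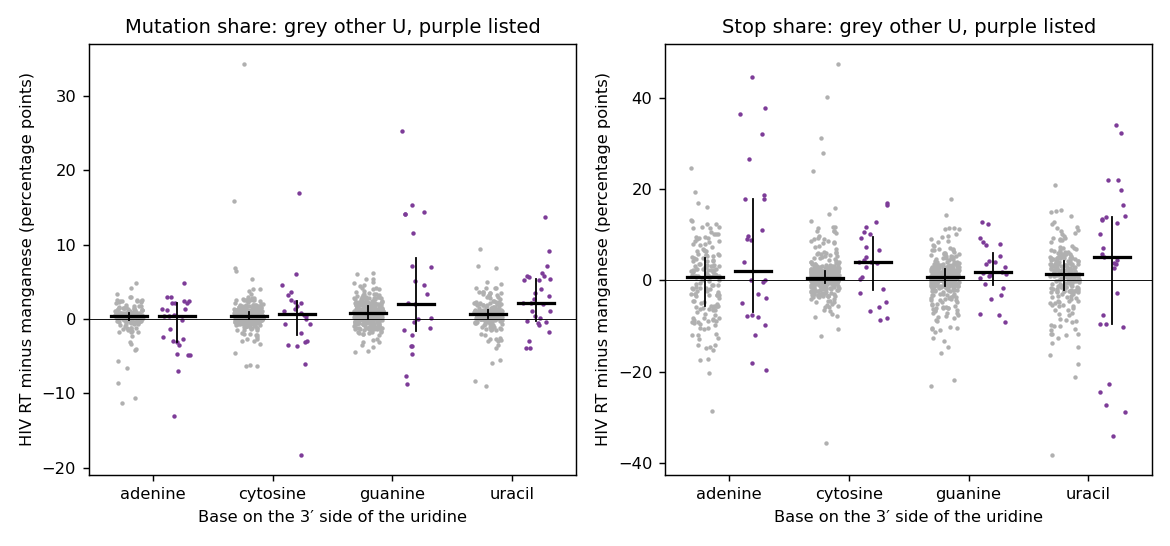
Difference of mutation share (left) and of stop share (right), HIV RT minus manganese after CMC, in percentage points, for each U by the base on its 3′ side. Grey points are other U and purple points listed pseudouridines, the thick bar is the median and the thin line the quartiles; the listed medians for mutation lie at 0.432, 0.656, 2.04 and 2.12 points before adenine, cytosine, guanine and uracil.

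For stops the neighbours sorted the 2 conditions in another way. Stop calls in favour of HIV RT and manganese numbered 53 and 55 of 188 before A and 48 and 17 of 382 before C. They numbered 38 and 38 of 332 before G, and 58 and 39 of 252 before U. Of all U, 17.1% were called in favour of HIV RT and 12.9% in favour of manganese. Before C the shares were 12.6% and 4.45%, both below those of all U. Stop shares themselves were highest before A, with medians of 12.5% with HIV RT and 11.2% with manganese. On the 5′ side C stood out, with 73 calls in favour of HIV RT and 33 in favour of manganese and a median difference of 1.42 points, against 34 and 28 after A, 55 and 51 after G, and 35 and 37 after U. U between 2 C had the most uneven split of the 16 pairs, with 28 calls and 1 call among 135 positions. These are 20.7% and 0.741% of the group, and the manganese share lay further from that of all U. The stop medians there were 4.34% and 2.005%. U between U and G leaned the other way, with 4 and 11 calls among 72. Before a single G the counts were 22 and 37, and before a run of at least 3 G they were 8 and 0.

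What base was read in place of U differed between the conditions. Over all mismatched reads at U, HIV RT read C in 63.0%, A in 21.5% and G in 15.6%, and manganese read C in 52.4%, A in 26.0% and G in 21.7%. The share of C was 10.6 points higher with HIV RT. In the mock libraries this pooled share was lower with HIV RT, at 45.1% against 51.5%. That order did not hold beside every 3′ base, and pooled shares weigh heavily misread U most. The mock shares were 59.8% and 82.5% before C, 32.9% and 35.3% before G, 41.1% and 27.2% before A, and 41.67% and 41.64% before U. At listed pseudouridines the share of C after CMC was 80.0% with HIV RT and 69.96% with manganese. Of the 1054 U with at least 100 mismatched reads in both libraries, C was the most frequent wrong base at 860 with HIV RT and at 634 with manganese. The 2 libraries had the same leading base at 723.

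The wrong base matched the base on the 3′ side more often in the manganese library than in the HIV RT library. At the 902 U with another base on that side, the mismatched reads carried its letter in 35.2% with HIV RT (95% Wilson interval 35.1 to 35.2) and in 53.6% with manganese (53.5 to 53.7). In the mock libraries the shares were 41.9% and 66.9%. SuperScript III with magnesium had 47.2% after CMC and 67.0% in its mock library. In pooled reads the higher match was thus not limited to the library with manganese, but pooled shares weigh heavily misread U most. In the magnesium mock library, the 237 U before a single C held 105361 of the 194793 mismatched reads. Mutation shares at these 237 had a median of 0.0529% and a maximum of 67.0%. Over single U with at least 100 mismatched reads, the medians after CMC were 37.5% with HIV RT, 51.4% with manganese and 41.2% with SuperScript III and magnesium. In the mock libraries these medians were 32.9%, 47.4% and 35.6%. The magnesium medians thus lay nearer to HIV RT, and each mock median was below that after CMC, unlike the pooled shares. For the base on the 5′ side the pooled shares were 31.8% with HIV RT and 38.4% with manganese after CMC. Before A the mismatched reads were A in 35.0% and 57.0%, before C they were C in 68.7% and 75.2%, and before G they were G in 15.5% and 34.0%. The leading wrong base was the 3′ base at 53 of 324 U before G with HIV RT and at 130 with manganese.

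After CMC this match grew with the length of the run before A, C and G in the manganese library, and also with SuperScript III and magnesium. With HIV RT it grew before A and G, and before C it was highest in the longest runs. Before a single A, 2 A and at least 3 A, the manganese share was 27.5%, 55.2% and 97.6%, and the HIV RT share was 32.2%, 34.1% and 64.3%. Before C it was 63.1%, 83.3% and 96.2% with manganese and 68.2%, 64.8% and 77.9% with HIV RT. Before G it was 18.4%, 47.1% and 85.3%, and 11.0%, 20.4% and 37.9%. With SuperScript III and magnesium after CMC it was 21.9%, 37.5% and 93.0% before A, 62.2%, 69.4% and 91.0% before C, and 15.7%, 37.9% and 77.8% before G. Between HIV RT and manganese, before A and G the longest runs gave the widest gap, and before C the gap was alike in runs of 2 and of at least 3. The mock libraries showed a like rise under manganese, to 98.8%, 91.0% and 79.2% in the longest runs, and values of 34.1%, 53.0% and 28.4% under HIV RT. Before at least 3 A, the single U with at least 100 mismatched reads ranged from 77.5% to 99.5% with manganese and from 21.9% to 82.8% with HIV RT.

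**Figure D3:**
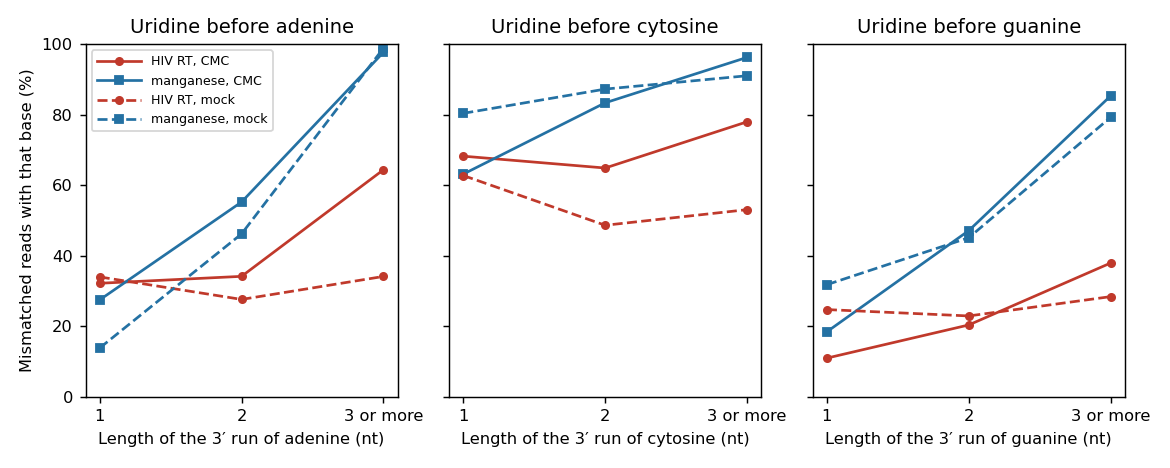
Percent of mismatched reads at U that carry the base of the 3′ side, by the length of the run of that base, pooled over U, for HIV RT (circles) and manganese (squares) after CMC (solid) or mock treatment (dashed). At runs of 3 or more the manganese CMC values are 97.6%, 96.2% and 85.3% and the HIV RT CMC values 64.3%, 77.9% and 37.9%; counting intervals are narrower than the symbols.

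Single U showed opposite readings. At U1531 of 28S, between G and G, C made up 89.6% of mismatched reads with HIV RT and 14.1% with manganese, and G 4.59% and 77.3%, with mutation shares of 3.69% and 1.97%. U960 of 18S and U1947 of 28S, also between G and G, had C in 75.7% and 7.73%, and in 78.8% and 11.0%. Ψ93 and U1155 of 18S had C in 90.0% and 22.4%, and in 94.6% and 27.8%. These 5 have the largest excess of C with HIV RT among U with at least 1000 mismatched reads in both libraries, and G was the main base read with manganese at all of them. The 5 with the largest excess of C under manganese were U945, U5022 and U2790 of 28S and Ψ572 and U1642 of 18S. At U945, before 3 C, the share of C was 35.8% with HIV RT and 91.3% with manganese. At Ψ572 it was 31.2% and 86.3%, while A made up 67.6% and 12.8%.

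Listed pseudouridines were among the strongest stops that set HIV RT apart. Of the 8 U with the largest excess of stops under HIV RT, 6 were on the list. Ψ1081 of 18S had a stop share of 46.6% with HIV RT and 2.15% with manganese, a difference of 44.4 points (interval 44.2 to 44.7), against 7.93% and 0.823% in the mock libraries. Ψ863 of 18S had 41.6% and 4.01%, and Ψ3844 of 28S had 49.2% and 12.8%. Ψ119 of 18S had 43.9% and 9.95%, Ψ3639 of 28S had 48.0% and 15.8%, and Ψ3851 of 28S had 43.5% and 11.5%. At these sites most of the difference was in reads that ended, with mutation shares between 1.60% and 6.49% under HIV RT.

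The largest difference in stops was at position 1248 of 18S, which carries a pseudouridine with further groups on its ring (m1acp3Ψ) and blocks normal pairing. Its stop share was 51.1% with HIV RT and 3.68% with manganese after CMC, and 10.5% and 1.85% in the mock libraries. It was mutated in every library, with 54.5% and 50.4% after CMC and 81.1% and 59.7% in the mock libraries. So the mutation shares lay closer together after CMC than the stop shares did. The remaining one was U8 of 28S, with 45.9% and 5.85%, close to the 5′ end of the table, with 18.4% and 5.66% in the mock libraries.

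Of the 8 U with the largest excess of stops under manganese, 4 were listed, all in 18S. Ψ1367 had 39.0% with HIV RT and 73.1% with manganese, a difference of -34.1 points (interval -34.5 to -33.7). Ψ822 had 36.9% and 65.6%, Ψ1045 had 20.6% and 47.9%, and Ψ1238 had 23.8% and 48.2%. All 4 stand before a U, and the first 3 follow a G. The other 4 were in 28S. U1791 had the largest difference, with 15.2% and 53.4%, and it lies just 5′ of the listed Ψ1792, whose own stop share was 46.3% with HIV RT and 36.5% with manganese. U5006 had 7.24% and 35.7%, and U911 had 17.7% and 40.8%, while their mock stop shares were 2.08% and 14.0%, and 5.77% and 17.2%. Minus the mock differences these 2 differed by -16.6 and -11.7 points. U3457 had 8.58% and 44.1%.

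At 26 U both events were called in opposite directions, in equal numbers each way. At 13 the mutation share was higher with HIV RT and the stop share higher with manganese, and 11 of these were listed pseudouridines. None of the 13 stood before A, with 3 before C, 4 before G and 6 before U. At the other 13 the mutation share was higher with manganese and the stop share higher with HIV RT, and 5 were listed. Of these, 6 stood before A, 4 before C, 1 before G and 2 before U. Both events were called in favour of HIV RT at 7 U. A joint count over all 6935 positions is not given here. Of those, 1.56% were called for mutation and 12.8% for stops in either direction.

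By the way they were picked, the opposed sites had fewer stops in the condition with more wrong bases. Both events could be frequent under either condition. At Ψ1367 of 18S the mutation share was 10.6% with HIV RT and 4.84% with manganese, opposite to its stops, which exceeded its mutation share under both conditions. Ψ1045 had 9.81% and 2.72%, and Ψ822 had 8.74% and 3.10%. In the other direction, Ψ1081 had more stops with HIV RT and more wrong bases with manganese, at the values given above. At Ψ1643 the stop share was 11.9% with HIV RT and 1.81% with manganese, and at Ψ4471 it was 18.6% and 5.82%, while the mutation share was higher with manganese. Over the 103 listed sites Spearman's rho between the difference in mutation and the difference in stops was -0.45 and Pearson's r -0.39, and over the other U -0.27 and -0.17. These sites share the libraries and the reads that cross them.

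**Figure D4:**
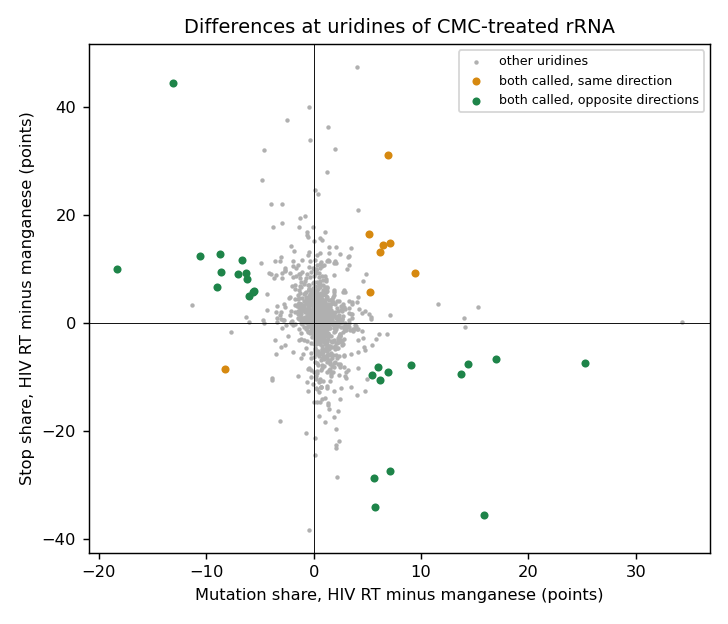
Difference in stop share against difference in mutation share, HIV RT minus manganese after CMC, in percentage points, for 1154 U. Green marks the 26 U called for both in opposite directions, 13 at the upper left and 13 at the lower right, and orange the 8 called for both in 1 direction, 7 with HIV RT and 1 with manganese.

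Where the stops lay around a pseudouridine differed as well. For the 71 listed sites with no other listed site within 3 nt, the median stop share at the site was 18.5% with HIV RT and 9.95% with manganese. At the next base on the 5′ side, which is copied after it, the medians were 8.49% and 7.47%, and on the 3′ side 4.23% and 4.08%. Among these 3 positions the site itself had the highest stop share at 52 of 71 with HIV RT and at 33 with manganese. The 5′ neighbour had it at 18 and 33. At 23 sites the highest stop share moved from the site with HIV RT to the 5′ neighbour with manganese, and at 6 it moved the other way. Before A, the site itself was highest at 19 of 19 with HIV RT and at 15 with manganese. Before C it was highest at 5 and 3 of 15, before G at 12 and 7 of 19, and before U at 16 and 8 of 18.

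**Figure D5:**
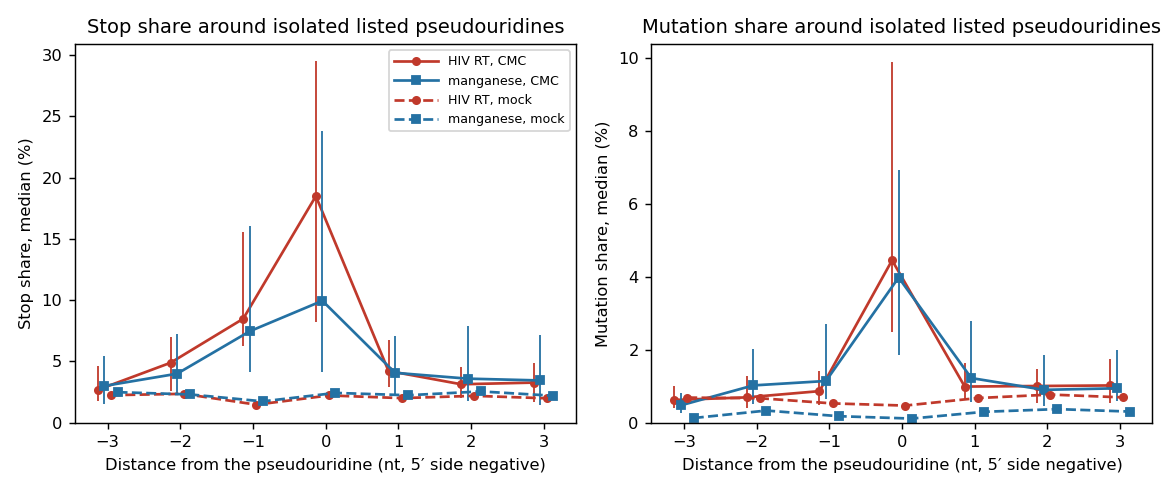
Median stop share (left) and mutation share (right), in percent, by distance from 71 isolated listed pseudouridines, for HIV RT and manganese after CMC (solid, with quartiles as vertical lines) and mock treatment (dashed). The stop medians at the site are 18.5% with HIV RT and 9.95% with manganese, and the mutation medians 4.46% and 3.98%, against mock stop medians of 2.23% and 2.44%.

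When stops were summed over a position and both its neighbours, 262 U were called in favour of HIV RT and 177 in favour of manganese, and the median difference at U was 0.915 points. The mutation medians around the same 71 sites were 0.868% with HIV RT and 1.15% with manganese on the 5′ side and 0.993% and 1.23% on the 3′ side. Over all bases beside these sites, unlike at the sites, the median was higher with manganese. The mock medians there were 0.532% and 0.180%, and 0.678% and 0.302%. Unlisted U just 5′ of a listed site, 26 in number, had stop medians of 13.2% with HIV RT and 7.96% with manganese, and those just 3′ of one, also 26, had 8.97% and 7.82%. Their mutation medians were 1.10% and 1.27% on the 5′ side and 2.28% and 1.34% on the 3′ side, so U just 3′ of a listed site had the higher median with HIV RT.

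Other modified positions and other bases gave a different picture. The 1-methyladenosine at 1322 of 28S, whose methyl group blocks pairing, was misread in 53.2% of crossing reads with HIV RT and 32.0% with manganese, and 53.1% and 34.1% in the mock libraries. Its stop shares were 65.0% and 63.2% after CMC. The 3-methyluridine at 4530 of 28S had mutation shares of 29.4% and 28.9%, with an interval of the difference from -0.349 to 1.41 points, and stop shares of 6.91% and 17.7%. At A, C and G positions manganese gave mainly T in place of the template's base, in 73.2%, 77.0% and 57.9% of mismatched reads, against 51.1%, 54.9% and 39.0% with HIV RT.

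The called positions outside U with the largest excess of mutation under HIV RT were A1322, G605 (23.2% and 2.53%) and A3343 (26.4% and 15.3%) of 28S. Those under manganese were C2205 (6.32% and 23.7%), C3337 (12.2% and 28.1%) and C4808 (1.98% and 16.4%) of 28S. Apart from A1322 these were crossed by between 728 and 3159 reads. Their mock libraries differed in the same direction, with 13.4% and 1.24% at G605 and 24.7% and 54.2% at C3337. For stops, the largest excess under HIV RT was at G4578 of 28S, with 32.5% and 7.17%, followed by C3000 with 30.0% and 5.23% and G1073, which had 1.33% with manganese and a difference of 23.7 points. The largest under manganese was at C1019, with 12.9% and 46.6%, followed by C2203 with 12.8% and 40.8% and G3236 with 6.76% and 34.3%. At G1073 and C2203 the mock stop shares were 33.7% and 0.566%, and 16.9% and 54.7%.

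The 2 rRNAs gave like medians at U. In 18S, 401 U had a median mutation difference of 0.570 points and a median stop difference of 0.901 points, and in 28S, 753 U had 0.499 and 0.870 points. Of the 33 mutation calls in favour of HIV RT, 15 were in 18S and 18 in 28S, and of the 18 in favour of manganese, 9 were in each. The share of C among mismatched reads differed by 7.97 points in 18S and 12.6 points in 28S.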

How the data were processed

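For each of 6 libraries the authors deposited 1 table for 18S and 1 for 28S rRNA, 12 tables altogether. A row gives, per the file headers, a position, its reference base, the count of crossing reads in all and with each base, and the number of stops. It also holds a mismatch rate and a stop frequency, which the authors deposited as fractions between 0 and 1 and which were recomputed from the counts within 1e-06. The submitters' processing notes name the tools Trimmomatic 0.32 and Bowtie 1.0, with settings, reference and counting program not given in the sources used here. Positions count from 1 on the deposited rRNA sequences, and no genome build applies. Copies of the rRNA genes are not told apart.

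Shares, differences, Fisher's exact tests with Benjamini-Hochberg adjustment over 6935 positions, Wilson intervals for shares and Newcombe intervals for differences (95%) were computed with Python 3.11.15, numpy 2.4.6, scipy 1.17.1, pandas 2.3.3 and statsmodels 0.14.6. With 1 library per group no p-value across samples or positions was computed. On simulated data, 50 of 50 positions raised by 6 points were called, for mutation and for stops. Of those raised by 4 points 0 of 50 were called, and of the unchanged ones 0 of 6735. The size bar lies between 4 and 6 points, so this outcome shows only that the rule was applied as stated. Variation between libraries could not be estimated from 1 library per group. The simulation therefore gives no rate of false calls for the real libraries.

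Positions, groups and lists were chosen with earlier results of these data known. The positions named are, for each event and direction, the 8 called U and 3 called other positions with the largest difference, the 5 U with the largest difference in the share of C (at least 1000 mismatched reads in both libraries) and the 4 U with the largest opposed differences. Other modified positions, U before at least 3 A and a few marked as chosen after their values were seen were added. The alternatives tried were a higher minimum of reads, the ends left out, each rRNA alone, the listed sites left out, mock values subtracted, pooled reads, other size bars and stops summed over neighbours.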

Additional observations from a re-analysis of the deposited data

Results flagged for a closer look

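At U1808 of 18S the stop share differed by 11.6 points, HIV RT minus manganese, in the CMC libraries and by -5.04 points in the mock libraries, so the 2 treatments gave opposite directions. This difference between the treatments was not tested, since each is 1 library.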

How the results depend on the processing

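Of 63 alternative values for the 8 main results at U, 34 stayed close to the values reported and 29 moved. A count was taken as close within a factor of 1.5. A difference was so within 0.128 points for mutation and 0.228 points for stops and for both events. For the share of C the limit was its counting interval. None of the differences changed direction, while a count of calls has no direction to change. Subtracting the mock difference gave medians of 0.0946 points for mutation, 1.14 for stops and 1.23 for both events. It gave 25 and 21 mutation calls (HIV RT, then manganese) and 177 and 92 stop calls, with only the size bar applied anew. The difference in the pooled share of C became 16.9 points. Pooling reads over U gave 0.686, 0.514 and 1.14 points. The share of C differed by 10.2 points without the first and last 50 positions, 11.3 without listed sites and 8.90 as a mean over U. A bar of 2 points gave 175 and 72 mutation calls and 428 and 259 stop calls, and a bar of 10 points gave 10 and 4, and 80 and 55. By construction each rRNA alone holds fewer calls, 15 and 9 for mutation and 64 and 54 for stops in 18S, and 18, 9 and, for stops in favour of manganese, 95 in 28S, where the share of C differed by 12.6 points, against 7.97 in 18S. Without listed sites, 12 mutation calls were left in favour of HIV RT and 12 in favour of manganese. Both counts can only fall by construction, but the excess of HIV RT calls was absent there. That list, and the sum of stops over neighbours, were added after the data were seen, and the list of the earlier analysis was not used here. Of 32 named differences, 31 kept at least 5 points in the same direction after the mock difference was subtracted. No test was remade, and the 32 were picked as the largest differences. Of the 32, 7 shrank by over 1.5 times, namely mutation at U652 of 18S and U316, U597, U3457 and U3645 of 28S and stops at U911 and U5006 of 28S. No paired analysis was possible because each group holds 1 library. At least 1000 reads crossed 1141 of the U in both libraries, so low depth touches few of them. Missing replicates, the unstated edge step and the list from general knowledge also limit the comparison.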
